A study of Mus musculus with 16 samples.

Results

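*Mlana*, *Mbp*, *Dct*, *Tyr*, *Tyrp1*, *Mitf*, *Sox10* and *Kit* are 8 genes known from melanocytes and Schwann cells, and they were followed here through sorted cardiomyocytes (CMs) of the mouse heart. All probes that carry one of these gene names were taken, which gave 13 probes of 55681 on the microarray, for 8 of 31982 gene names. *Mlana* and *Mbp* had been chosen by their measured signal, which is higher in ITGA6high than in ITGA6low cells at postnatal day (P) 2, so their values are given as a description without a test. The other 6 genes, with 9 probes, were tested. The samples were CMs of CD1 wild-type mice, an outbred albino stock. Hearts of embryonic day (E) 15.5 were sorted into ERBB-2+/ITGA6low (EL) and ERBB-2+/ITGA6high (EH) cells, ERBB-2 being a CM surface marker and ITGA6 (CD49f) the integrin α6 chain. Hearts of P2 were first cleared of non-myocytes by magnetic separation, and the CMs left were sorted by ITGA6, and not by ERBB-2, into ITGA6low (PL) and ITGA6high (PH) cells. Each sample came from pooled hearts of several animals, and its amplified polyA RNA was read on a one-color Agilent microarray, with 4 samples in each of the 4 groups, numbered 2, 3, 6 and 8 at E15.5 and 2, 3, 4 and 5 at P2.

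Melanocytes and Schwann cells both descend from the neural crest. SOX10 and MITF are transcription factors of the melanocyte lineage, KIT is the receptor through which the ligand encoded by *Kitl* acts on melanoblasts, and TYR, TYRP1 and DCT are the enzymes that make melanin. MLANA is a melanosome protein, and MBP is a structural protein of myelin, although the *Mbp* gene also gives longer golli transcripts outside of myelin. Melanocytes occur in the valves and septa of the murine heart, and *Dct*-expressing cells have been described in the atria.

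The 8 genes did not move together. *Mlana* and *Mbp* were higher in PH than in PL, *Dct* was lower in PH than in PL, *Kit* was higher in EH than in EL, and *Mitf* was bright in all samples and passed no test. *Tyr*, *Tyrp1* and *Sox10*, which define the lineages, were at background in nearly all samples. The name of a melanocyte or Schwann lineage is therefore not borne out by these samples, and the genes are described one by one.

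Part of the *Mlana* probe is shown, since the gene with the largest difference is known here only through it. The probe, A_55_P1953402, lies at chr19:29782737-29782796 (mm9), and its last 30 bases are printed, with no base in capitals.
Mlana, bases 31 to 60: ttccgctttaaggctgagtagacgccggtg
The 2 *Dct* probes, A_55_P1961466 and A_55_P2003053, share 44 of their 60 bases, so they are not independent readings.

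All values are quantile normalized signals without a unit, and fold-changes and tests compare a probe's level between samples. Where probes are ranked by brightness or summed over a list, the order and the sum also depend on how strongly each probe responds, and neither is a comparison of transcript amounts between genes. A probe counts as above background in a sample where the scanner software marked it as well above background. A fold-change is given on the log2 scale, with its standard error (SE) from limma. Normexp background correction, an alternative setting, added an offset of 50 to every spot. A probe can hardly reach 3-fold with normexp unless its brighter group lies well above 50. For probes of lower signal, a call lost with normexp therefore cannot decide whether the difference holds.

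*Mlana* was the member with the largest difference between the fractions. Its signal was 14.8, 12.1, 12.5 and 5.69 in EL samples 2, 3, 6 and 8, none of them above background. In EH it was 97.3, 94.0, 59.0 and 81.9, and all 4 samples were above background. At P2 the PL samples 2, 3, 4 and 5 read 39.2, 73.2, 213 and 47.6, again all above background. PH samples read 8386, 5759, 8759 and 5503. The fractions did not overlap at either stage, while the ranges of EH and PL overlapped, so that EL was lowest, EH and PL lay between and PH was highest.

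The mean signal of *Mlana* was 11.3 ± 3.91 in EL and 83.0 ± 17.4 in EH at E15.5, against 93.3 ± 81.3 in PL and 7102 ± 1708 in PH at P2 (SD, n = 4 for each group). At P2 this was a log2 fold-change of 6.56 (SE 0.45), or 94.6-fold. At E15.5 the fitted log2 fold-change was 2.94 (SE 0.45). Because EL gave only background there, the E15.5 difference is stated as at least 4.95-fold, that is, the mean of EH against the lowest signal that counted as above background on each EL microarray, or the probe's own signal where that was higher. With normexp background correction, which lifts low signals, it was 0.95 on the log2 scale.

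The highest PL value of *Mlana* belonged to sample 4, which was also the PL sample with the most atrial transcript. *Sln*, which encodes the atrial calcium pump regulator sarcolipin, read 704, 3098, 6837 and 1123 in PL samples 2, 3, 4 and 5. *Myl7*, the atrial myosin light chain, had its highest PL value in the same sample, 10757 against 1484, 4897 and 2088 in samples 2, 3 and 5. Both genes and *Mlana* thus had the same order over the 4 PL samples. The part of atrial cells in the *Mlana* values of PL was not tested. In bulk samples of this kind, fewer cells of a type and less RNA per cell cannot be told apart.

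*Mbp* was measured by 3 probes that disagreed. The brightest, A_52_P604195 at chr18:82727929-82727988 (mm9), was above background in all 16 samples. It read 174, 132, 197 and 155 in EL samples 2, 3, 6 and 8, and 300, 345, 285 and 322 in EH. PL samples 2, 3, 4 and 5 read 26.5, 44.1, 56.5 and 30.9, and PH samples 1314, 1252, 1450 and 1410. No ranges overlapped, with PL lowest, then EL and EH, and PH highest. Its mean was 39.5 ± 13.6 (PL) and 1356 ± 90.0 (PH; SD, n = 4), a log2 fold-change of 5.16 (SE 0.20), and the log2 fold-change at E15.5 was 0.94 (SE 0.20).

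The second *Mbp* probe, A_55_P1992160 at chr18:82691469-82691528 (mm9), gave the same order. It was at background in PL, with 4.41, 4.26, 5.02 and 5.12 in samples 2, 3, 4 and 5, and read 183, 183, 190.0 and 189.7 in PH, which is at least 9.59-fold higher in PH. With normexp its log2 fold-change at P2 was 1.67 instead of 5.31. In EL it read 16.1, 25.5, 38.9 and 25.9 and in EH 48.6, 47.5, 55.2 and 36.2, and these ranges overlapped. The third probe, A_52_P329451, is placed across a splice junction at chr18:82742266-82744570 (mm9), and it was above background in 0 of 16 samples, with signals between 3.91 and 21.1. The 3 probes are listed for different sets of *Mbp* transcripts, and which transcripts the cells made was not tested.

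**Figure D1:**
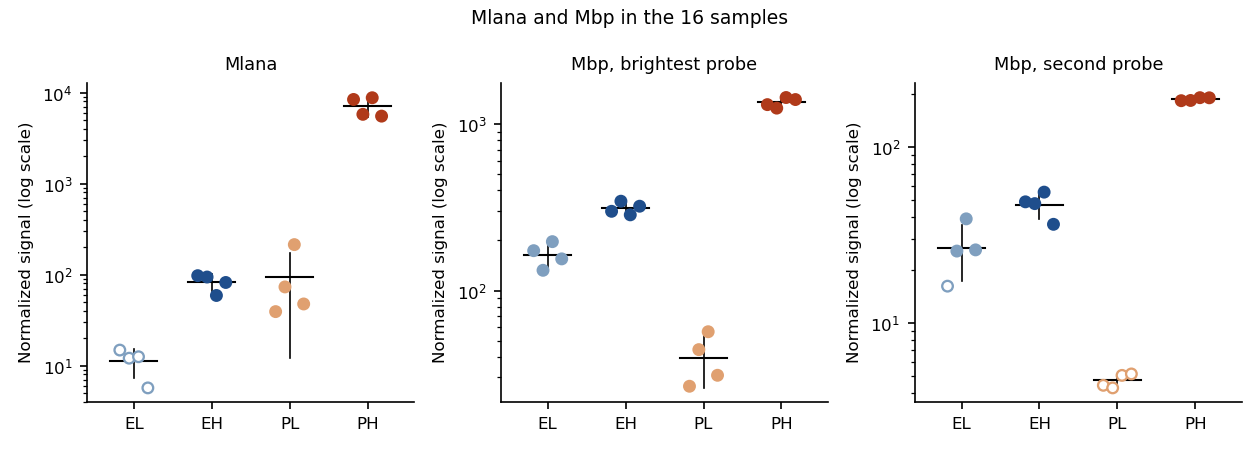
Normalized signal (log axis) of *Mlana* and of the 2 brighter *Mbp* probes in the 16 samples. Filled points are well above background and open points are not, the horizontal line is the mean and the vertical line the SD of 4 samples. *Mlana* lies between 5503 and 8759 in PH and at most at 213 in PL, and the brightest *Mbp* probe has its lowest values in PL.

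*Dct*, the melanin enzyme dopachrome tautomerase, differed in the other direction. Probe A_55_P1961466 read 428, 271, 275 and 680 in PL samples 2, 3, 4 and 5, all above background. In PH it read 15.0, 12.9, 21.2 and 30.8, and samples 4 and 5 were above background. The P2 fractions did not overlap. At E15.5 the probe was close to background, with 6.76, 8.76, 8.91 and 9.46 in EL samples 2, 3, 6 and 8. The EH samples read 12.2, 3.71, 3.76 and 8.63, and sample 2 alone was above background. The mean of *Dct* was 414 ± 192 (PL) and 20.0 ± 8.06 (PH; SD, n = 4), a log2 fold-change of -4.35 (SE 0.41) with a limma adjusted p of 6.47e-06. At E15.5 the log2 fold-change was -0.44 (SE 0.41, limma adjusted p = 0.671), with a 95% interval of -1.34 to 0.45.

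The second *Dct* probe, A_55_P2003053, read 179, 127, 99.4 and 287 in PL and 9.20, 6.28, 3.96 and 11.9 in PH, where no sample was above background. It was at least 8.96-fold lower in PH (limma adjusted p = 6.82e-06). The difference between the stages was itself tested as an interaction. The stages also differ in slide and in how the CMs were isolated, and these cannot be told apart from age. The change in PH minus the change in EH was -3.91 on the log2 scale for the first probe (SE 0.59, limma adjusted p = 0.00194) and -3.74 for the second (SE 0.61, adjusted p = 0.00331). The second probe was at background in all EL, EH and PH samples, and with normexp its difference between the stages was under 3-fold. *Irx4*, a transcription factor of ventricular CMs, fell in the same direction, from 3372, 3656, 2491 and 2812 in PL to 75.1, 56.9, 64.8 and 61.2 in PH. At E15.5 *Irx4* was also higher in EL, at 1849 to 2130 against 361 to 471 in EH, where *Dct* was close to background. The orders over PL differed too, with *Dct* highest in sample 5 and *Irx4* in sample 3. The part of ventricular cells in the *Dct* values of PH was not tested.

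*Kit* was the only one of the tested genes that passed in EH against EL. Its probe A_66_P128434 at chr5:76052394-76052453 (mm9) read 8.77, 13.8, 15.0 and 9.76 in EL samples 2, 3, 6 and 8, all at background. EH samples read 30.6, 21.3, 83.0 and 87.0, all above background, with samples 6 and 8 higher than samples 2 and 3. The groups did not overlap. All P2 samples were at background, with 3.43 to 4.44 in PL and 3.46 to 8.62 in PH. The log2 fold-change in EH was 2.01 (SE 0.42, limma adjusted p = 0.00781), and *Kit* was at least 2.86-fold higher in EH. The change in PH minus the change in EH was -1.60 (SE 0.60, limma adjusted p = 0.237) and did not pass. With normexp background correction the log2 fold-change of *Kit* was 0.65 and with a floor at the lowest detected signal 1.52, both under 3-fold.

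The *Kit* values went together with endothelial genes, but not with these alone. *Cdh5*, the cadherin of endothelial junctions, read 77.3, 46.0, 391 and 333 in EH samples 2, 3, 6 and 8 and was at background in all EL, PL and PH samples. *Tie1*, an endothelial receptor kinase, read 69.2, 41.3, 275 and 220 in EH. EH samples 6 and 8 were therefore the high ones for *Kit* and for both endothelial genes. They were also the highest EH samples for summed leukocyte genes without *Itgam*, at 1161, 944, 8686 and 1747 in samples 2, 3, 6 and 8. Summed epicardial genes without *Krt19* gave 791, 413, 1819 and 1243. For erythroid and fibroblast genes without their brightest gene samples 6 and 2 were the highest, and for neuron genes sample 2 was. Of 10 endothelial genes 5, *Cdh5*, *Flt1*, *Tie1*, *Emcn* and *Esam*, were called higher in EH, beside 1.17% of all probes. With normexp *Emcn* (1.11) and *Esam* (1.22) were under 3-fold, and *Esam* had a limma adjusted p of 0.0530 with only the groups compared. The summed signal of the endothelial list without its brightest gene *Kdr* was 149 to 203 in EL, 600, 491, 2211 and 1778 in EH samples 2, 3, 6 and 8, 121.5 to 185 in PL and 215 to 270 in PH. With *Kdr* it was 1160 to 1312 in EL and 1172, 1429, 3236 and 2581 in EH, where sample 2 lay inside the EL range, and 412 to 1697 in PL and 635 to 1278 in PH. Mast cells also carry KIT, and of 9 mast cell genes 0 were called in EH with limma, with 0 at an unadjusted p under 0.05 and 0 by the methods' test. *Mcpt4*, *Ms4a2*, *Fcer1a*, *Tpsab1* and *Gata1* were at background in all 16 samples. *Tpsb2*, a mast cell tryptase and the brightest gene of the list, was above it in all E15.5 samples. *Hdc*, the enzyme that makes histamine, was above background in 4 EH samples, at 35.7 to 213, and in 1 EL sample, with a log2 fold-change of 1.51 that did not pass (limma adjusted p = 0.325). Without *Tpsb2* the mast cell list summed to 64.0, 64.1, 327 and 98.8 in EH samples 2, 3, 6 and 8 and to 43.3, 56.0, 226 and 48.6 in EL, so that sample 6 was the highest of both fractions. The part of other cell types in the *Kit* difference was not tested. Within the slide that held 3 EH and 2 EL samples the log2 fold-change of *Kit* was 2.06, and within the other, with 1 EH and 2 EL samples, 2.53. With the slide as a block it was 2.22 (limma adjusted p = 0.00316).

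*Mitf* was well above background in all 16 samples with both of its probes. Probe A_55_P2176838 at chr6:97971229-97971288 (mm9) had E15.5 means of 2980 ± 154 (EL) and 2620 ± 205 (EH), and P2 means of 3434 ± 488 (PL) and 3335 ± 312 (PH; SD, n = 4). Its log2 fold-change was -0.19 at E15.5 (95% interval -0.41 to 0.03) and -0.04 at P2 (95% interval -0.26 to 0.18). Probe A_55_P2152437 at chr6:97968501-97968560 (mm9) read 1893 to 2054 in EL and 1358 to 1695 in EH, which did not overlap, but the log2 fold-change of -0.36 did not pass (limma adjusted p = 0.195, 95% interval -0.68 to -0.05). At P2 it was 0.05 (95% interval -0.27 to 0.36). The intervals of both probes lie inside a 3-fold change at both stages.

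*Tyr*, *Tyrp1* and *Sox10* gave almost no signal. *Tyr* probe A_66_P135323 was above background in EH sample 3, at 17.7, and in PL sample 4, at 29.3, and in no other sample. The other *Tyr* probe, A_51_P102311, lay between 3.85 and 5.95 and was above background in 0 of 16 samples. *Tyrp1* lay between 3.83 and 5.08 and *Sox10* between 3.98 and 12.7, each with 0 of 16 samples above background. At this sensitivity a difference between the fractions was not detectable for these genes.

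**Figure D2:**
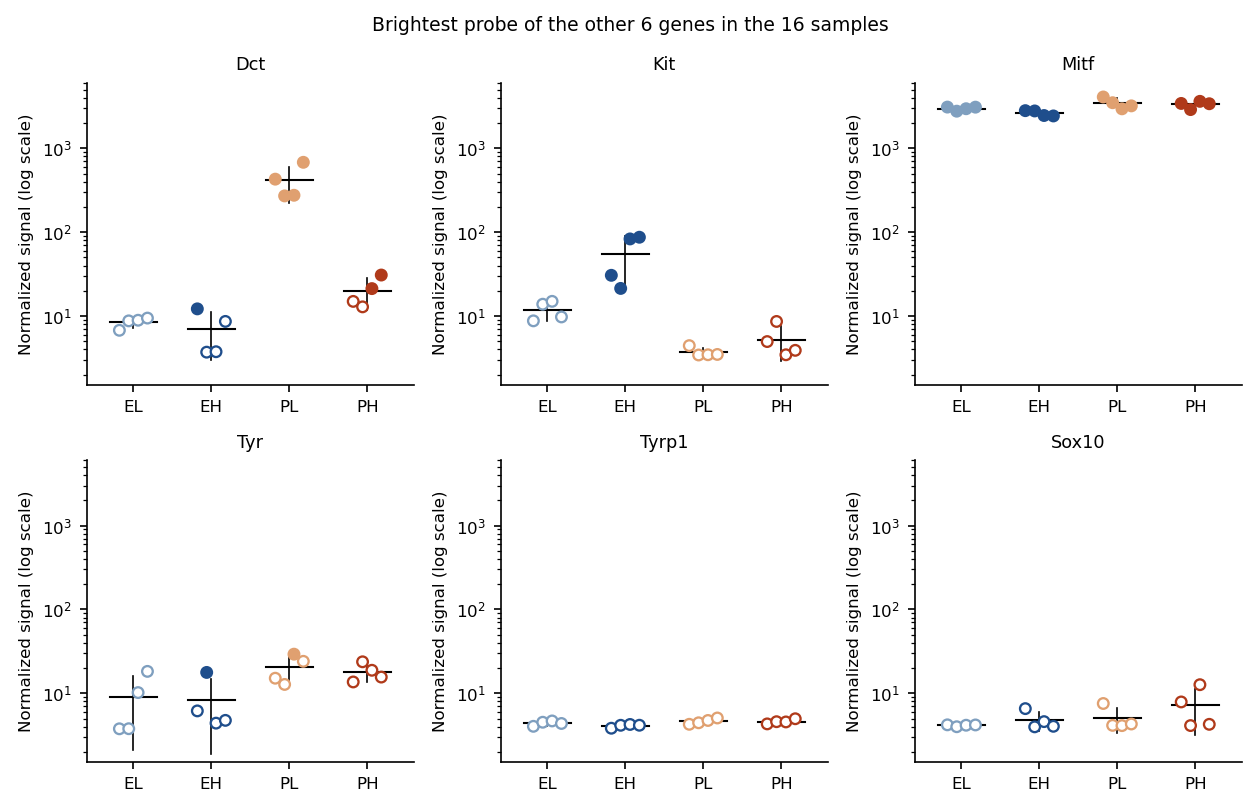
Normalized signal (log axis) of the brightest probe of *Dct*, *Kit*, *Mitf*, *Tyr*, *Tyrp1* and *Sox10* in the 16 samples, with filled points well above background, the mean as a horizontal and the SD of 4 samples as a vertical line. *Dct* is above background in all PL samples, *Kit* in all EH samples, *Mitf* in all 16 samples and *Sox10* in none.

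Calls of the tested genes can be set against the whole microarray. The members were chosen with earlier results of these data known, which the shares over all probes do not take into account. Calls asked for a change of 3-fold or more and for p no higher than 0.05 after Benjamini-Hochberg adjustment over all probes. Of the 9 tested probes 1 was called higher in EH, that of *Kit*, beside 1.17% of all probes, and 0 were called lower in EH with limma, beside 0.454% of all probes. At an unadjusted p under 0.05 1 of the 9 was lower in EH, and by the methods' test 0. In PH 2 were called lower, both of *Dct*, beside 0.916%, and 0 were called higher with limma, beside 1.73%, with 0 at an unadjusted p under 0.05 and 0 by the methods' test. The stages differed for 2 of the 9, both of *Dct*, beside 1.2% of all probes. With all 13 probes counted, the ranges did not overlap for 3 higher and 1 lower in EH (7.02% and 9.08% of all probes) and for 3 higher and 2 lower in PH (6.54% and 6.27%), where *Mlana* and *Mbp* had been chosen for this.

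The promoters show where the letters of an MITF-bound E-box lie in the melanin genes. The letters CATGTG were searched on both strands, so also as CACATG, in RefSeq promoters of 300 bases (GRCm38.p6), which were given for 5 of the 8 genes. They were found in the promoters of *Dct*, *Tyr* and *Tyrp1* and not in the 3 of *Mitf* or the 2 of *Kit*, and 14.2% of all 32851 promoters held them. The 250 bases before the start of *Dct* (chr14:118052247-118052496, GRCm38.p6, minus strand) hold 2 matches, in capitals, whose first bases lie 232 and 150 bases before the start.
Dct: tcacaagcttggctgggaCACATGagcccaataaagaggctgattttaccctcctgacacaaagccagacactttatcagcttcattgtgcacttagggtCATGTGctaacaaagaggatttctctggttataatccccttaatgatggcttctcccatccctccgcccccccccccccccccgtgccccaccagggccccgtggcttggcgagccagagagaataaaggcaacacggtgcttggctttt
All 3 promoters with a match belong to genes of melanin synthesis, of which *Dct* alone gave signal above background in all samples of a group. A match describes the letters of this window only.

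The other genes of the melanocyte lineage were looked at as a list of 20 genes. *Slc24a4*, *Rab38*, *Rab27a* and *Ednrb* were called higher in at least 1 comparison, and none of these makes melanin. The paper lists *Slc24a4* among the genes with higher expression in atrial CMs. In EH 2 of the 20 were called higher, beside 1.17% of all probes, and 0 lower with limma, beside 0.454%, where 1 was lower at an unadjusted p under 0.05 and 0 by the methods' test. In PH 3 were called higher, beside 1.73%, and 0 lower, beside 0.916%, where 2 were lower at an unadjusted p under 0.05 and 0 by the methods' test. The median log2 fold-change of the list was -0.0040 in EH and -0.00077 in PH, beside -0.02 and -0.0053 over all probes. Of the 20 genes, 10 were at background in all 16 samples, among them *Mc1r*, *Pax3* and *Slc45a2*.

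*Slc24a4*, a sodium, potassium and calcium exchanger, was higher in the ITGA6high fraction at both stages, as *Mlana* was, but unlike *Mlana* was at background in PL. It read 11.8, 4.04, 6.16 and 13.5 in EL samples 2, 3, 6 and 8 and 115, 90.7, 65.6 and 83.7 in EH. At P2 it read 15.996, 4.11, 14.5 and 4.47 in PL and 528, 412, 433 and 401 in PH. It was at background in all ITGA6low samples and above it in all ITGA6high samples. That is at least 5.35-fold higher in EH (limma adjusted p = 0.000278) and at least 22.7-fold higher in PH (limma adjusted p = 1.40e-06). With normexp the log2 fold-change in EH was 1.00, under 3-fold.

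*Ednrb*, the endothelin receptor B, read 25.8, 30.2, 106.96 and 61.8 in EH samples 2, 3, 6 and 8 and was at background in all other samples, at least 2.92-fold higher in EH (limma adjusted p = 0.00844). With normexp its log2 fold-change was 0.64 and with the floor 1.55, both under 3-fold. Its high samples, 6 and 8, were those of *Kit* and of the endothelial genes. *Rab38*, a small GTPase of melanosome transport, was at least 1.55-fold higher in PH (limma adjusted p = 0.000562 for a fitted log2 fold-change of 1.92), with PH samples at 19.2, 39.1, 34.3 and 31.6, of which sample 2 was at background, and all PL samples at background. With normexp the log2 fold-change was 0.46, and with a floor at the lowest detected signal 0.63 (limma adjusted p = 0.171), and the call was lost. All 4 EH samples of *Rab38* were above background and no EL sample was. This E15.5 difference was at least 2.33-fold, and its fitted log2 fold-change of 1.30 (limma adjusted p = 0.0148) is under 3-fold. *Rab27a*, which links melanosomes to their motor, was called in PH with a log2 fold-change of 1.78 (limma adjusted p = 0.0263) although sample 4 of PH was the only one of 16 above background. Without PH replicate 4 its limma adjusted p was 0.0853, and it lost the call in 10 settings in all. *Ptgds*, the brightest gene of the list, had a log2 fold-change of -1.08 in EH and -1.06 in PH, under 3-fold at both stages.

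*Pmel*, which forms the fibrils of the melanosome, was low, with 10.1, 28.1, 15.5 and 16.01 in EH, all above background, and 3.35 to 9.12 in EL, none above it. These ranges did not overlap, but the log2 fold-change of 1.79 did not pass (limma adjusted p = 0.0838). At P2 1 PL sample and 3 PH samples were above background. *Trpm1*, a cation channel of melanocytes, read 133, 90.4, 145 and 88.1 in PL and 61.1, 57.5, 39.8 and 28.0 in PH. The change in PH minus that in EH was -1.83 on the log2 scale (SE 0.40, limma adjusted p = 0.0220), while the log2 fold-change in PH was -1.32 (limma adjusted p = 0.00579), without overlap and under 3-fold, and that in EH 0.50 (limma adjusted p = 0.407). Without EL replicate 2 the adjusted p was 0.0514, and with normexp the difference was -0.95 and under 3-fold.

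Ligands of these receptors were low. *Kitl*, the ligand of KIT, read 25.5, 13.9, 63.1 and 60.8 in EH samples 2, 3, 6 and 8 and 17.4, 9.63, 10.8 and 7.91 in EL, and was at background at P2. Its log2 fold-change of 1.64 in EH passed narrowly (limma adjusted p = 0.0475) and did not with the sample number as a block (limma adjusted p = 0.0926). It lost the call in 18 of the other settings and kept it in 6, with an adjusted p of 0.142 without EH replicate 6 and 0.143 without EH replicate 8. *Edn1*, encoding endothelin 1, read 80.0, 73.9, 56.8 and 72.9 in PL and 16.5, 22.7, 19.2 and 30.5 in PH, a fall with a log2 fold-change of -1.70 (SE 0.21, limma adjusted p = 5.57e-05). Without PH replicate 2 it was -1.57 and with normexp -0.65, both under 3-fold. At E15.5 *Edn1* went the other way, with 30.2 to 39.2 in EL and 47.1 to 85.7 in EH. That log2 fold-change of 0.93 (limma adjusted p = 0.0112) was under 3-fold. *Edn3* was at background in all 16 samples. Of the 6 ligand genes, 1 was called higher in EH, *Kitl*, whose ranges overlapped, beside 1.17% of all probes, and 1 lower in PH, *Edn1*, beside 0.916%.

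Of 28 Schwann cell and myelin genes, 2 were called higher in EH, *Fabp7* and *Dhh*, beside 1.17% of all probes. With normexp their log2 fold-changes were 0.28 and 0.56 and with the floor 0.44 and 1.22, all under 3-fold. In PH 0 rose or fell with limma, beside 1.73% and 0.916% of all probes, where 4 were higher and 5 lower at an unadjusted p under 0.05 and 0 by the methods' test in either direction. In EH 0 fell with limma, with 3 lower at an unadjusted p under 0.05 and 0 by the methods' test. *Fabp7*, a fatty acid binding protein of glia, read 20.3, 18.4, 28.6 and 22.0 in EH and was at background in all other samples, at least 1.35-fold higher in EH (limma adjusted p = 1.32e-05). *Dhh*, the hedgehog ligand of Schwann cells, read 28.5, 14.5, 68.8 and 72.9 in EH samples 2, 3, 6 and 8, of which sample 3 was at background. It was high in the samples where the endothelial genes were high, and was at least 2.33-fold higher than in EL (limma adjusted p = 0.00762). The median log2 fold-change of the list was -0.0095 in EH and 0.02 in PH.

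*Erbb3* and *Cdh19*, known from Schwann cells, were at background in all 16 samples, and *S100b* was above it in 1 PL sample alone. *Ncam1*, the brightest gene of the list, had a log2 fold-change of -0.15 in EH and 0.57 in PH.

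**Figure D3:**
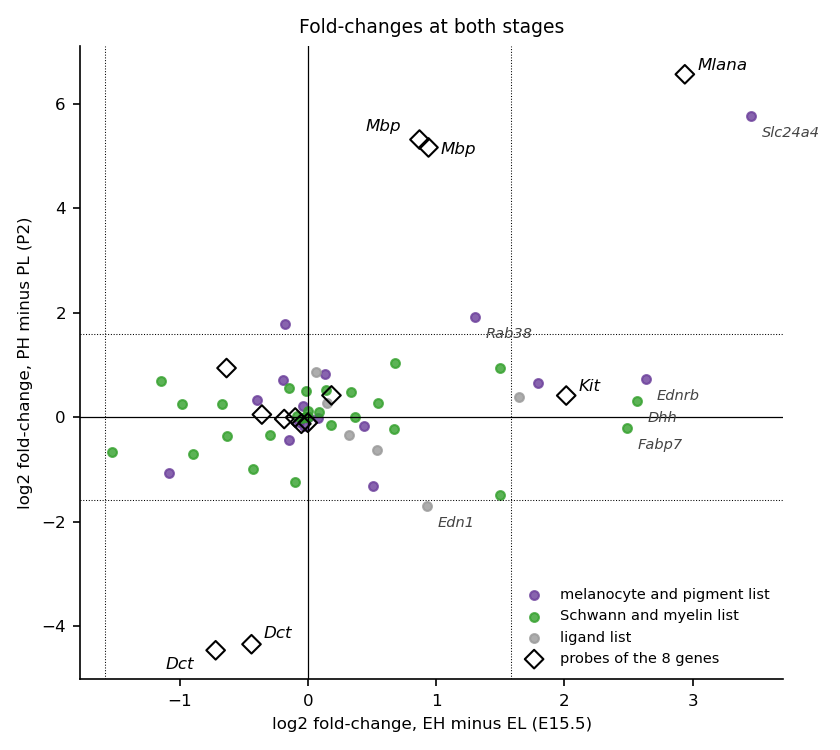
Log2 fold-change between the fractions at E15.5 (horizontal axis) and at P2 (vertical axis) for the 13 probes (diamonds) and for the genes of the melanocyte, Schwann and ligand lists (points), with dotted lines at 3-fold. At P2 *Mlana* lies at 6.56, the 2 brighter *Mbp* probes at 5.16 and 5.31 and *Slc24a4* at 5.77, both *Dct* probes lie at -4.35 and -4.46, and the other points lie between -1.70 and 1.92.

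Sums over the lists were set by few genes. Without *Ptgds* the melanocyte list summed to 395 to 509 (EL) and 542 to 838 (EH) at E15.5 and to 312 to 380 (PL) and 794 to 871 (PH) at P2, of which the *Slc24a4* probe was 401 to 528 in PH. With *Ptgds* the order of the fractions turned, to 9851 to 11723 (EL) and 4969 to 6310.0 (EH) and to 14897 to 18229 (PL) and 7736 to 9818 (PH). The Schwann list without *Ncam1* summed to 1165 to 1289 (EL) and 1151 to 1348 (EH) at E15.5 and to 803 to 982 (PL) and 963 to 1139 (PH) at P2, so its fractions overlapped at both stages. With *Ncam1* they overlapped at E15.5 (2924 to 3178 in EL and 2794 to 3009 in EH) and not at P2 (1321 to 1532 in PL and 1695 to 1863 in PH). The atrial list summed to 170018 to 195103 in EL and 719431 to 733378 in EH, and to 20093 to 90622 in PL and 911520 to 1027370 in PH.

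**Figure D4:**
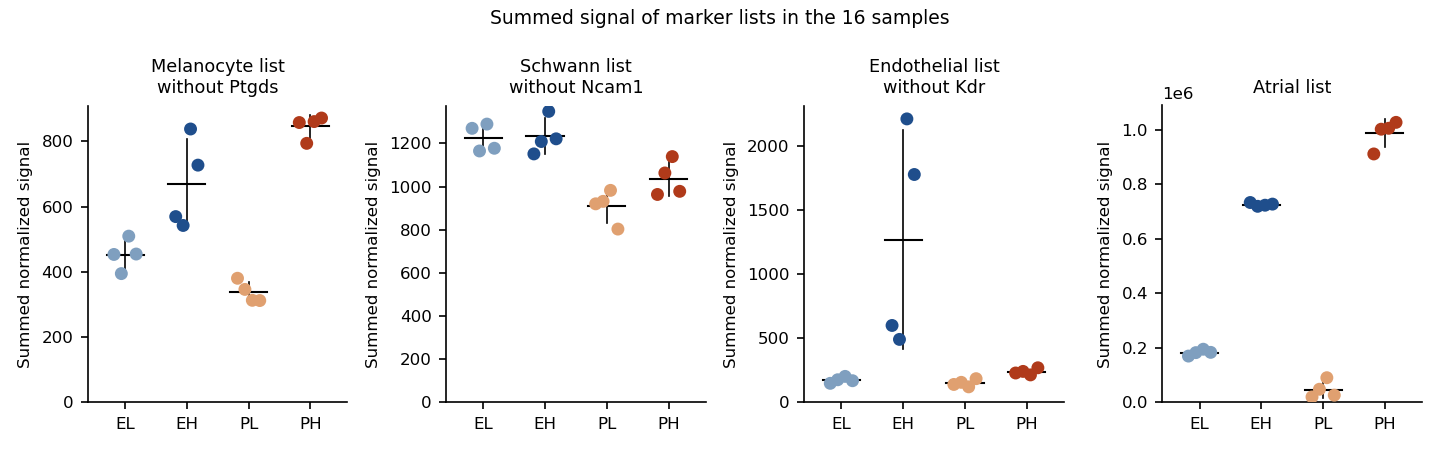
Summed normalized signal (linear axis from 0) of the melanocyte, Schwann and endothelial lists, each without its brightest gene, and of the atrial list in the 16 samples, with the mean as a horizontal and the SD of 4 samples as a vertical line. The endothelial sum reaches 2211 in EH and at most 270 in PH, and the Schwann sums of the fractions overlap without *Ncam1*.

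Among neuron genes *Dbh*, the enzyme that makes noradrenaline, and *Phox2a*, a transcription factor of autonomic neurons, were called higher in EH, and *Elavl4* in PH, where normexp took it to 0.78. *Phox2a* was at background in all EL samples and above it in 3 EH samples, the ranges overlapped, and the difference was at least 1.58-fold. With normexp its log2 fold-change was 0.46 and with the floor 0.79, both under 3-fold. *Dbh* was bright at both stages, with E15.5 means of 94.1 ± 26.7 (EL) and 285 ± 49.9 (EH) and P2 means of 890 ± 391 (PL) and 2456 ± 196 (PH; SD, n = 4). Its log2 fold-change of 1.62 in EH was 1.12 with normexp, 1.48 without EL replicate 3, 1.51 without EH replicate 2, 1.53 with the slide as a block and 1.58 with scaling to the 75th percentile, all under 3-fold. Calls in these and the following lists stand beside 1.17% of all probes called higher and 0.454% lower in EH, and 1.73% higher and 0.916% lower in PH. Of the other lists, *Sox17* among 8 oligodendrocyte genes and *Cd68* and *Lyz2* among 10 leukocyte genes were called higher in EH. *Sox17* was above background in 2 EH samples and in no EL sample, and its ranges overlapped. Its log2 fold-change of 2.63 was 2.03 without EH replicate 6 and 2.04 without EH replicate 8. *Sox17* lost the call in 19 of the other settings, with a limma adjusted p of 0.0670 with the sample number as a block, *Lyz2* in 7 and *Cd68* in 3. *Epor* among 7 erythroid genes was called higher in PH, *Postn* among 9 fibroblast genes lower in PH, and of 7 epicardial genes *Wt1* and *Krt19* higher in PH and *Lrrn4* lower in EH. With normexp these 5 were under 3-fold, with 1.03 for *Epor*, -0.66 for *Postn*, 0.54 for *Wt1*, 0.66 for *Krt19* and -0.80 for *Lrrn4*. *Wt1* also lost the call with the floor (limma adjusted p = 0.359), and *Postn* with only the groups compared (limma adjusted p = 0.0625). Among 6 pacemaker genes *Vsnl1* was called higher in EH and in PH, and with normexp its log2 fold-changes of 1.49 and 1.51 were under 3-fold. *Shox2* was called higher in EH, where 1 sample was above background, and with the floor its log2 fold-change turned from 1.67 to -0.32. Of 8 atrial genes *Sln*, *Nppa*, *Myl7*, *Nr2f2*, *Gja5*, *Tbx5* and *Fgf12* rose in EH and in PH, and *Myl4* in PH. Of 6 ventricular genes *Irx4*, *Hey2*, *Myh7* and *Lbh* fell in EH and in PH, and *Myl2* and *Mpped2* in PH. Without EH replicate 2 *Myh7* had -1.56 in EH, under 3-fold. Of the 10 CM genes *Myh6* alone was called, higher in EH, where scaling to the 75th percentile gave 1.33, under 3-fold, and *Tnnt2*, cardiac troponin T, was above background in all 16 samples.

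Genes whose signal ran most like that of *Mlana* over the 16 samples were *Nrtn*, which encodes the neurotrophic factor neurturin, and *Pbxip1*, each with Pearson r = 0.981. They were followed by *Gm1078*, now *Sbk3* (r = 0.980), *Rabgap1l* (r = 0.976) and *Pdlim4* (r = 0.976). *Gm1078* was, like *Mlana*, at background in EL and had means of 260 in EH, 270 in PL and 24462 in PH. Most like the brightest *Mbp* probe were *Rab33a*, a small GTPase (r = 0.987), *Gne*, an enzyme of sialic acid synthesis (r = 0.979), *Mcf2l* (r = 0.978), *Jam3* (r = 0.973) and *Arhgap31* (r = 0.973). *Rab33a* too had its lowest mean in PL, with 83.0 (EL), 156 (EH), 29.0 (PL) and 437 (PH). For *Dct*, whose ranking was added after its values were seen, they were *Gnptab* (r = 0.973), *Hibch* (r = 0.969), *Hspb6* (r = 0.969), *Hadhb* (r = 0.969) and *Ephx2* (r = 0.966). None of these genes is on the melanocyte or Schwann list. For each, 5 genes were drawn from all probes above background in a group, where 7 melanocyte and 9 Schwann list genes lay. With so few, their absence cannot show whether *Mlana*, *Mbp* or *Dct* ran with the lineages. The samples of a stage share slides, and the correlations are descriptions over 16 samples with no test.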

How the data were processed

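The authors deposited, for each of the 16 microarrays, the scanner output of Agilent Feature Extraction 10.7.3.1 with signal intensities per spot, in which the processed intensity is background-subtracted, and a table of their quantile normalized log2 values. Probe positions refer to mm9. Of 59305 spots, those marked as outliers were left out, replicate spots were averaged to 55681 probes, and these went through quantile normalization before log2 was taken. The median processed signal was 5.34 to 14.7, so low signals depend on how background was subtracted. The result differed from the authors' log2 values by a median of 0.00029.

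limma 3.58.1 (R 4.3.3) fitted 4 group means in 1 model, from which PH against PL, EH against EL and the stage difference were taken, with Benjamini-Hochberg adjustment over all probes. The procedure was tested on simulated data. It first missed the limit set for the share of known changes called, and the pass condition was then revised to recovery in probes of low spread, so that in probes of high spread a change that did not pass may have been missed. The methods' test of the study, an analysis of variance with a Tukey test, was an alternative. Python 3.11.15 was used for tables and plots. A gene of a list is represented by its brightest probe. All 8 genes are named with every probe, and from each list every gene called at E15.5 or P2, otherwise the 2 brightest. The 5 genes most like *Mlana* and *Mbp* were ranked by Pearson r among probes above background in all 4 samples of a group. *Pmel*, *Trpm1*, *Irx4*, genes at background and the genes like *Dct* were named after values were seen. Members and lists were chosen with earlier results of these data known.

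EL samples 2 and 8 and EH samples 2, 3 and 8 lay on 1 slide. EL samples 3 and 6 and EH sample 6 lay on another, scanned on another day, and all P2 samples on the third. Stage, slide and the way the CMs were isolated therefore cannot be told apart. The samples of a stage came from 4 independent sorting experiments. Deviations of EL and EH samples of the same number from their group means gave Pearson r of 0.255, 0.189, 0.450 and 0.379, so that each pair exceeded 0.1 and these numbers pair the fractions. At P2 the correlations were 0.375, 0.176, -0.031 and 0.542, and the numbers were not taken as pairs. The main fit has no term for pairs at either stage, so its SEs, intervals and p-values leave the pairing out. The sample number as a block, at both stages, was an alternative setting. Sequences are those of the microarray design and of RefSeq (GRCm38.p6). Results for some items of the lists are not reported here.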

Additional observations from a re-analysis of the deposited data

Results flagged for a closer look

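Of 25 sets of 4 samples checked for a sample far from the others, 1 stood out, the highest PH sample of *Mitf* probe A_55_P2152437 with a signal of 2334 in sample 3. About 1 in 20 such sets stands out by chance.

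The change between the fractions differed between the stages in a test of the difference itself for these genes. Each is given as the log2 change in PH minus that in EH from limma. CMs were isolated by ERBB-2 at E15.5 and by removal of non-myocytes at P2, which cannot be told apart from stage in these differences. Of the 8 genes *Dct* was the only tested one, with -3.91 and -3.74 for its 2 probes, of which the second was under 3-fold with normexp. In the lineage lists these were *Trpm1* (-1.83), *Edn1* (-2.63), *Fabp7* (-2.70) and *Mal* (-2.99), a myelin proteolipid that was above background in 3 EH samples and 1 PL sample. In lists of other cell types *Cdh5* gave -4.08, *Tie1* -4.37, *Emcn* -4.12, *Cd68* -2.35, *Itgam* -1.63, *Phox2a* -2.64 and *Shox2* -1.66. The difference of *Phox2a* lost its call in 17 of the other settings and kept it in 5, with a limma adjusted p of 0.0581 with the slide as a block. Epicardial genes had positive differences, with 3.05 for *Wt1*, 3.62 for *Krt19* and 2.56 for *Lrrn4*. Among CM genes the differences were -1.93 for *Myh6*, 1.69 for *Nr2f2*, 3.30 for *Myl4*, 2.13 for *Gja5*, -3.26 for *Irx4*, -2.02 for *Myl2*, -2.83 for *Myh7* and -3.06 for *Mpped2*. The difference of *Gja5* lost its call in 11 of the other settings and kept it in 12, with a limma adjusted p of 0.0551 with the slide as a block, and that of *Nr2f2* in 5. With normexp 13 of these 22 differences of list genes lost their call, those of *Trpm1*, *Edn1*, *Fabp7*, *Mal*, *Phox2a*, *Cdh5* (-1.48, limma adjusted p = 0.0657), *Tie1* (-1.50), *Emcn* (-0.98), *Nr2f2*, *Wt1*, *Krt19*, *Lrrn4* and *Shox2*. With the floor *Fabp7*, *Mal*, *Phox2a*, *Nr2f2*, *Wt1* and *Shox2* lost it, and that of *Shox2* turned to 0.19. The difference of *Itgam* lost its call in 4 of the other settings.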

How the results depend on the processing

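With normexp background correction the probes called fell to 207 of EH against EL, 418 of PH against PL and 233 for the difference between the stages, from 907, 1476 and 670, and with a floor at the lowest detected signal to 601 and 874 for the fractions. Both settings gave 0 called probes of the 6 tested genes in EH against EL, since *Kit* dropped under 3-fold with an unchanged direction, and both kept the 2 of *Dct* in PH against PL. Normexp also took the second *Dct* probe under 3-fold in the difference between the stages, to -1.51. Both settings raise or compress the lowest signals by construction. Normexp did so with an offset of 50 on every spot, so a call lost there by a probe of low signal decides nothing. Over the samples left out one at a time, the called probes were 825 to 936, 1439 to 1587 and 572 to 709, and the called probes of the tested genes stayed at 1 and 2. *Kit* in EH against EL had log2 fold-changes of 1.71 to 2.39 over samples left out and a limma adjusted p of 0.0017 to 0.0492 over all settings. *Mlana* in PH against PL had 5.56 with normexp and 6.26 to 7.08 over samples left out, and the brightest *Mbp* probe 3.79 and 4.99 to 5.36. The replicate block gave 917, 1447 and 718 called probes and, of the list genes, took the call of *Kitl* and of *Sox17*. With scaling to the 75th percentile the medians of all probes were -0.18 in EH and -0.14 in PH, that of the Schwann list in PH turned with them from 0.02 to -0.14, and no called member probe lost its call or changed direction. Of 76 calls of list genes that were followed through the settings, 35 held in every setting and 2 reversed, both of *Shox2* with the floor (-0.32 in EH and 0.19 for the difference between the stages). Normexp took away 15 of 30 calls in EH and 9 of 24 in PH, and the floor 8 and 3. With normexp *Slc24a4* (1.00), *Ednrb* (0.64), *Fabp7* (0.28) and *Dhh* (0.56) fell under 3-fold in EH, and with the floor the last 3 did too (1.55, 0.44 and 1.22). The number of microarrays and signals near background limit the precision.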
